A study of Mus musculus with 20 samples.

Results

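The genes described here are 39 genes that run the G2 to M part of the cell cycle, out of 24391 genes counted in each sample. They were taken by name from a list of mitotic genes, and all 39 were found in the count files. The list was drawn up with earlier results of these data known, so the choice was not blind to them. They were followed in 20 RNA sequencing samples of E2-10HA, a mouse hybridoma that the labels call mature T cells. A hybridoma is a T cell fused to a tumour line, so these cells divide continuously and the mitotic genes are switched on in every sample. By role, the 39 genes comprise 6 cyclins and entry kinases, 4 subunits of the chromosomal passenger complex, 5 spindle checkpoint genes and 2 cofactors of the anaphase-promoting complex. The others are 3 centromere genes, 9 spindle genes, 6 cytokinesis genes and 4 genes of chromosome structure.

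As background, cyclins A and B bring the kinase Cdk1 to activity at the end of G2 and start mitosis. The spindle checkpoint holds the cell in metaphase until every chromosome is attached, after which the anaphase-promoting complex with its activator Cdc20 marks cyclin B and securin for destruction. Most of these genes are transcribed only from late S phase to mitosis. Their promoters are known to be held off in resting cells by the DREAM complex and driven in G2 by MuvB with B-Myb (Mybl2) and Foxm1, through an element called CHR, often with CCAAT boxes bound by NF-Y close by.

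The samples fell into 6 groups, and the labels give E2-10HA as the cells of all of them. The CRISPR controls (n = 6) carried lentiCRISPRv2 without a guide, under puromycin selection. The H2A.Z guide samples (n = 6) carried lentiCRISPRv2-sgH2afv/H2afz under the same selection, with guides against both genes that encode the histone variant H2A.Z. All 6 of their titles carry the line number 12, so they are samples of 1 line and line-specific changes cannot be told apart from changes due to the guides. The BioNICD samples carried pLXSP-BirA, a bacterial biotin ligase, together with pMY-BioNICD-IRES-GFP (wild type, n = 2) or pMY-BioNICD-DEP-IRES-GFP (DEP mutant, n = 2), selected with histidinol and sorting. BioNICD is a biotin-tagged Notch intracellular domain, the part of the receptor that acts in the nucleus, present here without a time limit. The labels do not spell out DEP. The NICD-ER samples carried pMIGRI Flag-NICD-ER IRES GFP, in which the same domain is fused to the hormone-binding domain of the estrogen receptor, selected by sorting. They received ethanol (n = 2) or the ligand (Z)-4-hydroxytamoxifen, 4-OHT (n = 2), for 24 hours. Nothing in the labels says that replicates were grown apart, so the p-values speak of the scatter among these libraries alone, and that scatter may be technical.

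The CRISPR samples belong to 2 submission sets, told apart by a treatment field that the labels give only for replicates 1 and 2 of each group. Set 1 holds those replicates and set 2 holds replicates 3 to 6. The CRISPR libraries held 10704131 to 18344298 counts and the NICD libraries 16371601 to 48238324. The ribosomal RNA precursor Rn45s took over 5% of the counts in control replicate 6 and guide replicates 5 and 6 (6.73% to 7.67%), and Lars2 stood at 9420 to 12500 CPM in these 3 libraries against 116 to 971 CPM in the other CRISPR samples. In wild-type BioNICD replicate 1, 0 of the 15190 counts above 0 were odd, against 8041 of 15181 in replicate 2, so that its counts as deposited are doubled and its total of 48238324 stands for 24119162. Levels are given as CPM, the usual depth-scaled count, after TMM scaling over all 20 samples. H2afz fell from 28.2 ± 2.50 to 5.19 ± 0.440 CPM and H2afv from 127 ± 11.8 to 36.0 ± 12.0 CPM with the guides (mean ± SD, n = 6 each). Dtx1, a direct Notch target, was at 28.3 ± 1.43 CPM with ethanol and 363 ± 3.18 CPM with 4-OHT, and at 1.71 ± 0.169 CPM in the DEP mutant and 1630 ± 19.6 CPM with wild-type BioNICD (n = 2 each). Notch1 counts, which can include the construct, were at 643 ± 20.9 CPM in the DEP mutant and 282 ± 11.3 CPM with wild-type BioNICD. T cell markers summed to 1500 to 2500 CPM over the 20 samples, and B cell markers to at most 0.482 CPM. Fibroblast markers summed to 34.9 CPM in control replicate 1 and 42.3 CPM in guide replicate 1, against at most 0.284 CPM in any other sample. Of 5 myeloid markers only Itgam reached 1 CPM in wild-type BioNICD (63.0 and 61.4 CPM), while Csf1r, Lyz2, Cd14 and Mpo stayed at or below 0.167 CPM there. Of the 2 NK markers, Ncr1 was at 2.33 and 2.01 CPM in wild-type BioNICD and at 0 in all other samples. The other, Klrb1c, was at 0 in both wild-type BioNICD samples and at most at 0.341 CPM in any other sample. Erythroid markers summed to at most 0.0324 CPM.

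Promoter sequences were available from RefSeq (GRCm38.p6) for 34 of the 39 genes, as windows from 250 bases before to 50 bases after the start. No window was given for Aurkb, Ccna2, Incenp, Kif20a and Tpx2, and Bub3, Ect2 and Prc1 have 2 windows each, which overlap, so that 37 windows were searched on both strands. The CHR letters TTTGAA or TTCGAA stood in 31 of the 37 windows (83.8%), against 19.2% of all 32851 windows of the same length. CCAAT stood in 30 of them (81.1%), against 37.4% of all windows. Both stood together in 28 (75.7%), against 7.52% of all windows. The E2F letters TTTCCCGC, TTTCGCGC, TTTGCCGC or TTTGGCGC were found in 2 windows (5.41%) against 2.26% of all windows. The RBPJ core TGGGAA, read by the DNA-binding partner of NICD, was found in 6 (16.2%) against 25.6% of all windows. A match is a description of the letters and not a sign of a bound site. The windows below belong to the 4 genes with a window that ranked highest for the size of their changes over the 3 comparisons, and to Ccnb1, the cyclin that starts mitosis. Capitals mark CHR letters and CCAAT on either strand, where CCAAT on the other strand reads ATTGG and TTTGAA reads TTCAAA.
Mad2l1: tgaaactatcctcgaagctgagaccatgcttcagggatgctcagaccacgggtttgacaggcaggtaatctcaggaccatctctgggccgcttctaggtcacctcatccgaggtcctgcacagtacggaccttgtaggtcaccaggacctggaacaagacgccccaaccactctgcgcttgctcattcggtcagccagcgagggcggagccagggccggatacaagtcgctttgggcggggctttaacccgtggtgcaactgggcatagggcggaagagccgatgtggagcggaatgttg
Hmmr: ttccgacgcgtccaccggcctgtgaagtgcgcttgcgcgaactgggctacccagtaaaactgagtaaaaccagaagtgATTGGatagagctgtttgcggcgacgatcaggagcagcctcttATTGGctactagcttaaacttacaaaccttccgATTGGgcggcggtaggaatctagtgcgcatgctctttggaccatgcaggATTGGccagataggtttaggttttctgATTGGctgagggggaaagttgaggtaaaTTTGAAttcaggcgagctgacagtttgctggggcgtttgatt
Ncaph: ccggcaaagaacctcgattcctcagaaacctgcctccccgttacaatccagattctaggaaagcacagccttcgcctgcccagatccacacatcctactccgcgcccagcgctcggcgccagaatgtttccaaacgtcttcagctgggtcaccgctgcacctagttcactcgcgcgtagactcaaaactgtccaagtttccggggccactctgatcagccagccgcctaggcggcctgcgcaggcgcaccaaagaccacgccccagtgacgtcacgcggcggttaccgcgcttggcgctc
Top2a: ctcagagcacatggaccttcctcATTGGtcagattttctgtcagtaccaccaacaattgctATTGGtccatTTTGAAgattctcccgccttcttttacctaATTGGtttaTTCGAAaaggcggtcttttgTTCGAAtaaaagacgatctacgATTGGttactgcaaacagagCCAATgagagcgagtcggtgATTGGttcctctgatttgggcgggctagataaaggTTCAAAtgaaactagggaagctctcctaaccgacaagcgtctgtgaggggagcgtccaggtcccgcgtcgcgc
Ccnb1: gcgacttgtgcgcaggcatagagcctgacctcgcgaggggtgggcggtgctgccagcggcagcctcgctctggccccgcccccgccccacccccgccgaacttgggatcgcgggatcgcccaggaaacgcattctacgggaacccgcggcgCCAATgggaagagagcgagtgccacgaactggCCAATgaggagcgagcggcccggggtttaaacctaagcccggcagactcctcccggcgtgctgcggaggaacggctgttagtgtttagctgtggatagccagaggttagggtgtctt

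The 5 windows differ in these letters. They lie, in GRCm38.p6, at chr6:66534971-66535270 on the plus strand for Mad2l1, and on the minus strand at chr11:40733388-40733687 for Hmmr, chr2:127133905-127134204 for Ncaph, chr11:99024140-99024439 for Top2a and chr13:100786437-100786736 for Ccnb1. Top2a, the decatenating topoisomerase of mitotic chromosomes, held 4 CHR matches and 6 CCAAT matches. Hmmr, a microtubule-binding spindle protein, held 1 CHR match and 5 CCAAT matches. Ccnb1 held no CHR match and 2 CCAAT matches. Mad2l1 and Ncaph held neither in this window.

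All 39 genes were well expressed, with a lowest count of 624 in any sample (Ccnb1), and all passed the filter on low counts in both models. Together they took 1.38% ± 0.0431 of the counts other than Rn45s in the CRISPR controls and 1.28% ± 0.0188 with the H2A.Z guides (SD, n = 6 each). The share was 1.12% ± 0.0156 with ethanol and 1.31% ± 0.0198 with 4-OHT. It was 1.27% ± 0.0247 in the DEP mutant and 0.943% ± 0.00686 with wild-type BioNICD (n = 2 each). Both wild-type BioNICD samples lay below all 18 others, and the ethanol pair lay below the remaining 16. Here and below, fewer cells in G2 or mitosis and less of each mRNA per cell cannot be told apart in bulk RNA.

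**Figure D1:**
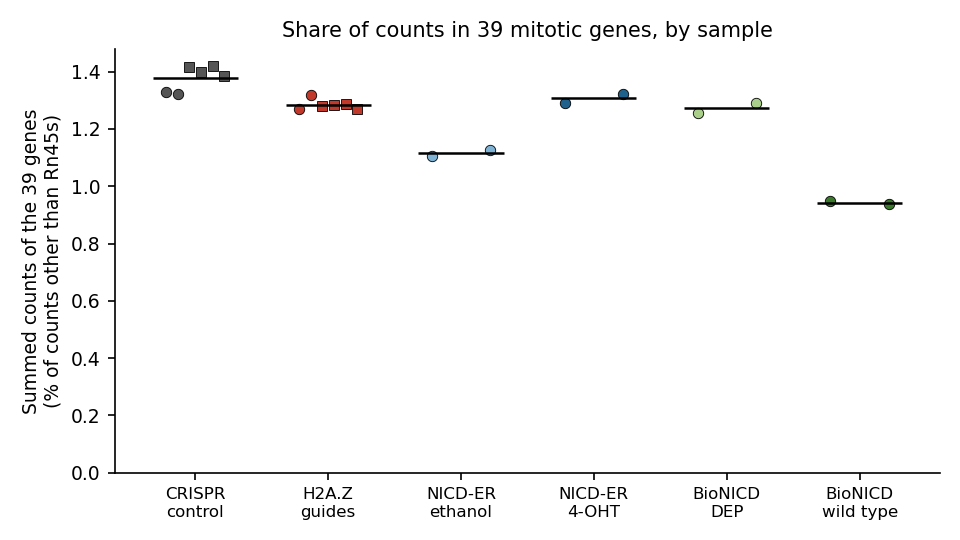
Summed counts of the 39 mitotic genes as a share of all counts other than Rn45s (y axis, %), by group (x axis). Points are samples (circles: set 1 and NICD samples, squares: set 2) and bars are group means. Wild-type BioNICD lies lowest at 0.938% to 0.948%.

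Levels across the 6 groups are a description, since the lines were made and selected differently. The CRISPR control had the highest mean CPM for 26 of the 39 genes. Wild-type BioNICD had the lowest mean for 26 genes and ethanol-treated NICD-ER for 11, and for 21 of the 39 genes both wild-type BioNICD samples lay below the other 18, against 9.92% of the 12499 genes tested in the NICD samples. Per kilobase of exon, Top2a and Ube2c, the ubiquitin-conjugating enzyme of the anaphase-promoting complex, were the top pair in every group, at 375 and 285 RPKM in the controls against a median of 76.1 RPKM over the 39 genes. The order of levels for Ccnb1 ran from the CRISPR control (69.9 ± 4.70 CPM) through 4-OHT (58.4 ± 2.76), H2A.Z guides (55.2 ± 4.67), ethanol (51.7 ± 3.86) and the DEP mutant (48.1 ± 2.08) to wild-type BioNICD (33.7 ± 0.215). The 4 middle groups of that order overlapped with their neighbours, while the control and wild-type BioNICD samples overlapped with no other group.

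The first comparison asked what happens to these genes when H2A.Z is targeted. Most of them fell by a small amount, and a few moved far more or the other way. Of the 39 genes, 30 fell and 4 rose in edgeR's quasi-likelihood test (adjusted p under 0.05, submission set as a covariate), with a background over all 10662 genes tested of 32.7% lower and 31.8% higher. The median log2 fold change was -0.21, against -0.0081 over all genes tested. All 6 guide samples lay below all 6 controls for 17 genes and above them for 3, where the background was 16.5% and 17.1% of genes, and the groups overlapped for 19. The genes that rose were Ckap2, Mki67, Cenpf and Kif23. Aurka, Aurkb, Ube2c, Kif11 and Aspm did not pass the test.

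The largest change was in Ect2, the exchange factor that activates RhoA at the cleavage furrow (mm9 chromosome 3, 26996144 to 27052800). It ran from 200 through a median of 221 to 229 CPM in the controls and from 69.0 through 71.5 to 97.9 CPM with the guides. The groups did not overlap, and per kilobase of exon Ect2 was the least expressed of the 39 genes in the guide samples, at 18.7 RPKM against 53.3 RPKM in the controls. The log2 fold change was -1.52 ± 0.0698 (SE, adjusted p = 2.36e-11), the only one of the 39 past 1 in size in this comparison. Cytokinesis genes otherwise fell by less: Racgap1, the GTPase-activating partner in centralspindlin, by 0.25, Anln, the actin-binding scaffold of the contractile ring, and the kinesin Kif20b each by 0.21, and Kif20a by 0.19. Kif20a shares 34.4% of its exon bases with Brd8 and Cdc23 and was counted without strand, so its value is uncertain. Kif23, the kinesin subunit of centralspindlin, went the other way, from a median of 199 to 230 CPM (log2 fold change 0.20 ± 0.0352, adjusted p = 9.53e-05), with no overlap.

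Cdc20, the activator of the anaphase-promoting complex (mm9 chromosome 4, 118105506 to 118109948), was second in size. It ran from 141 through 148 to 164 CPM in the controls and from 67.2 through 72.3 to 120 CPM with the guides. No guide sample reached the lowest control, and the highest guide sample was replicate 1 of set 1. The log2 fold change was -0.93 ± 0.0790 (adjusted p = 4.22e-08). Ube2c, which works with the same complex, was at 266 ± 11.6 CPM in the controls and 281 ± 15.0 CPM with the guides and did not pass (adjusted p = 0.136).

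All 5 checkpoint genes fell, by 0.30 to 0.41 on the log2 scale. Bub1, the kinetochore kinase, ran from 257 through 267 to 281 CPM in the controls and from 171 through 207 to 230 CPM with the guides. The groups were apart, and the lowest guide sample was replicate 1. Its log2 fold change was -0.41 ± 0.0560 (adjusted p = 9.13e-06), and that of Bub1b, the BubR1 pseudokinase that binds Cdc20, was -0.40 ± 0.0470. Mad2l1, which forms the inhibitory complex with Cdc20, ran from 117 to 129 CPM in the controls and from 78.6 to 113 CPM with the guides.

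Among cyclins and entry kinases, 5 of 6 fell. Ccnb1 ran from 62.3 through 70.8 to 75.2 CPM in the controls and from 46.6 through 55.9 to 59.2 CPM with the guides (log2 fold change -0.34 ± 0.0615, adjusted p = 0.000136). The groups did not overlap. Cdk1 ran from 260 through 275 to 302 CPM in the controls and from 203 through 260 to 275 CPM with the guides, and here the groups overlapped. Its log2 fold change of -0.14 ± 0.0567 (adjusted p = 0.0443) passed narrowly, and the call was lost in 17 of the 25 alternatives run, DESeq2 among them. Plk1 fell by 0.26, Ccnb2 by 0.23 and Ccna2 by 0.21, the last with 13.4% of its exon bases shared with Exosc9. Aurka, the centrosomal kinase that activates Plk1, ran from 156 to 185 CPM in the controls and from 164 to 218 CPM with the guides (adjusted p = 0.656).

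Of the passenger complex, which corrects wrong attachments at the centromere, Birc5 (survivin) fell by 0.32, Cdca8 (borealin) by 0.28 and Incenp, its scaffold, by 0.18. Its kinase Aurkb was at 181 ± 7.93 CPM in the controls and 170 ± 22.6 CPM with the guides (adjusted p = 0.0680). Of the spindle genes, Tpx2, which activates Aurora A on microtubules, fell most. It ran from 547 through 574 to 584 CPM in the controls and from 387 through 407 to 467 CPM with the guides, with no overlap (log2 fold change -0.45 ± 0.0393, adjusted p = 5.31e-08). Kif2c, the microtubule depolymerase at centromeres, fell by 0.34 and Hmmr by 0.31. Kif11, the motor that pushes the spindle poles apart, was at 290 ± 28.1 and 293 ± 41.1 CPM (adjusted p = 0.937).

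Ckap2, a microtubule-stabilizing spindle protein, rose most. It ran from 53.5 through 55.4 to 63.9 CPM in the controls and from 75.9 through 81.2 to 91.4 CPM with the guides. The groups were apart in both sets, and the log2 fold change was 0.52 ± 0.0387 (adjusted p = 8.61e-09). Ckap2 is the only member on mm9 chromosome 8 (23278624 to 23296291), where the median log2 fold change over 571 genes tested was 0.51, and Cenpa, the centromeric histone H3, is the only member on chromosome 5, where the median over 682 genes was -0.33. Cenpa itself fell by 0.20. Whether these values share a cause with their chromosomes was not tested. Leaving both chromosomes out gave 3 genes higher and 28 lower of 37, where 5775 of all 9409 genes tested were called in either direction.

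Of the genes of chromosome structure, 3 fell and 1 rose. Ncapd2 and Ncaph, condensin I subunits, fell by 0.40 and 0.27 and Top2a by 0.24. Mki67, the Ki-67 protein that coats mitotic chromosomes (mm9 chromosome 7, 142881471 to 142908062), ran from 1580 through 1820 to 1900 CPM in the controls and from 2350 through 2370 to 2560 CPM with the guides. Every guide sample was above every control (log2 fold change 0.44 ± 0.0437, adjusted p = 2.30e-07). Mki67 is widely used as a marker of cycling cells, and here it moved against the median of the list. Cenpf, a kinetochore protein of late G2, rose by 0.26 ± 0.0686, with 323 to 364 CPM in the controls and 363 to 485 CPM with the guides, so that the groups overlapped. Cenpe, the kinetochore kinesin, fell by 0.13.

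**Figure D2:**
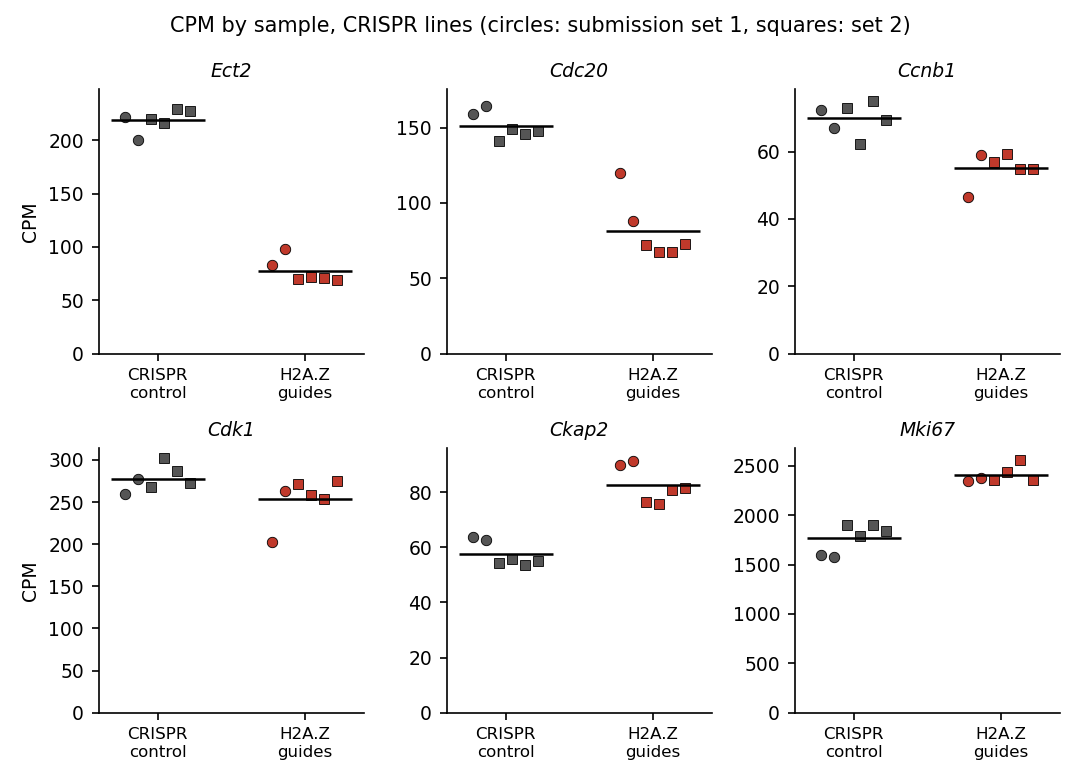
CPM (y axis, from 0) of 6 mitotic genes in the CRISPR control and H2A.Z guide samples (x axis). Circles are set 1, squares are set 2, bars are means. Ect2 and Cdc20 are lower and Ckap2 and Mki67 higher in every guide sample than in any control, while Cdk1 overlaps.

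The libraries that stood apart were left out in turn. Without the 3 libraries over 5% Rn45s, 4 genes rose and 24 fell, and Cdk1, Kif20a, Incenp, Cenpe, Cenpa and Prc1 lost their call. Of all 10767 genes tested in that fit, 5869 were called in either direction. Without control replicate 1 and guide replicate 1, the 2 libraries with fibroblast markers, 4 rose and 31 fell, and no call was lost. There, 7360 of all 10695 genes tested were called in either direction. This last alternative was chosen after seeing the data.

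The submission sets were then compared, since each holds both groups. In set 1 alone (2 samples against 2), 3 genes rose (Ckap2, Mki67 and Cenpf) and 5 fell (Ect2, Cdc20, Tpx2, Ttk and Birc5), with a background of 14.6% higher and 13.0% lower, so that neither count lies above the background. In set 2 alone (4 against 4), 4 rose and 33 fell, with a background of 35.7% higher and 36.4% lower. Medians were -0.15 and -0.25, and 34 of the 39 genes had the same sign in both sets, a share not computed over all genes. The difference of the effect between sets passed the test for 10 genes, all lower in set 2 than in set 1, and for 0 in the other direction, where the background was 7.49% lower and 8.19% higher. They were Cenpf, Ect2, Aurka, Cdc20, Ncapd2, Hmmr, Incenp, Cdca8, Kif20a and Bub1b. Ect2 fell by 1.23 in set 1 and by 1.66 in set 2 (difference -0.44 ± 0.0899, adjusted p = 0.00471). Cdc20 fell by 0.64 and by 1.06 (difference -0.42 ± 0.124, adjusted p = 0.0324). The call of a difference was lost in 8 of the 17 alternatives for Cdc20 and in 10 of the 17 for Hmmr. Cenpf rose by 0.58 in set 1 and by 0.11 in set 2 (difference -0.48 ± 0.0731, adjusted p = 0.000657). Aurka had a log2 fold change of 0.33 in set 1, which did not pass (adjusted p = 0.0869), and fell by 0.10 in set 2. The number of such genes moved with single libraries of set 1, from 5 lower without control replicate 2 to 15 lower and 5 higher without guide replicate 2. H2afv itself fell further in set 2 (difference -0.63 ± 0.123, adjusted p = 0.00374), and its part in these differences was not tested.

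**Figure D3:**
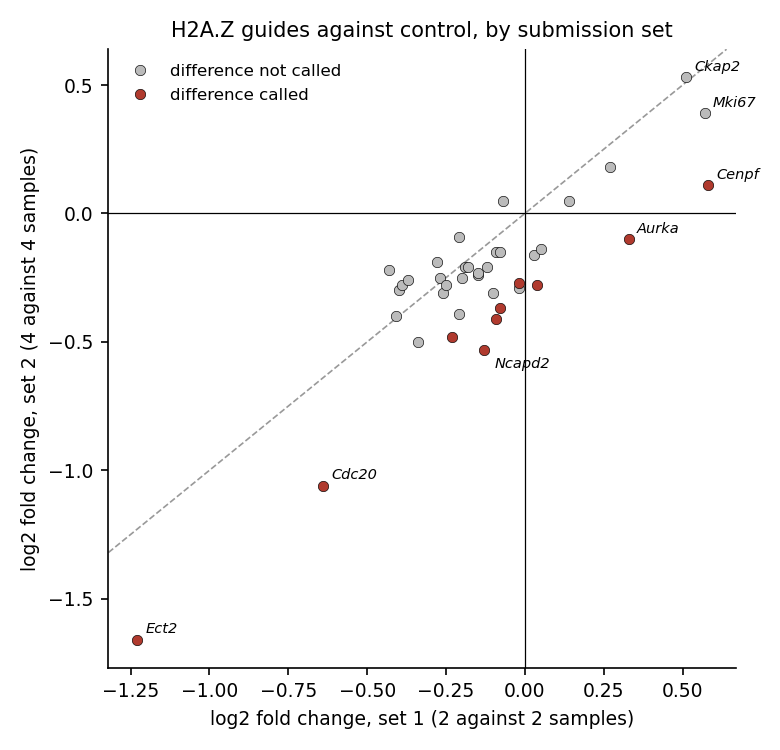
log2 fold change with H2A.Z guides in set 1 (x axis) and set 2 (y axis) for the 39 mitotic genes. Points are genes, red where the difference between sets passed the test, and the dashed line marks equal change. Ect2 and Cdc20 fall in both sets, Ckap2 and Mki67 rise in both, and all 10 red points lie below the line.

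The second comparison set 24 hours of 4-OHT against ethanol in NICD-ER cells. No sample received 4-OHT without NICD-ER, so effects of the ligand itself cannot be told apart from those of NICD activity. The ethanol cells were not free of Notch target expression. Dtx1 was at 28.3 CPM there and at 0.211 CPM in the CRISPR controls, and Hes1 at 25.9 and 1.49 CPM. Nearly all of the mitotic genes rose with 4-OHT, each by a little. Of the 39 genes, 35 rose and 0 fell, against a background over 12499 genes of 19.0% higher and 17.2% lower. The median log2 fold change was 0.23 (range 0.03 to 0.38) against -0.00045 over all genes, and all 39 values were above 0. Both 4-OHT samples were above both ethanol samples for 38 of the 39 genes, where the background was 32.7% of the 12499 genes. Cdk1, Cdc20, Ube2c and Kif2c did not pass. In 1 model over all 20 samples, 23 genes rose and 0 fell, where 2218 of all 11988 genes tested were called in either direction.

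Prc1, the bundler of antiparallel microtubules in the spindle midzone (mm9 chromosome 7, 87439337 to 87461145), rose most. It was at 273 and 282 CPM with ethanol and at 352 and 369 CPM with 4-OHT, 2 pairs far apart (log2 fold change 0.38 ± 0.0349, adjusted p = 6.21e-09). Cenpe was at 217 and 233 CPM with ethanol and at 282 and 292 CPM with 4-OHT (0.35 ± 0.0415, adjusted p = 3.26e-07). Birc5 was at 69.0 and 67.2 CPM and then at 84.4 and 88.3 CPM (0.35 ± 0.0448, adjusted p = 1.39e-06). These 3 genes were named for the largest changes, so their like size follows from the choice and does not stand for their complexes. The other passenger complex genes rose by less, Aurkb by 0.13, Incenp by 0.18 and Cdca8 by 0.23. So did the other centromere genes, Cenpa by 0.16 and Cenpf by 0.22.

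Nusap1, which bundles microtubules near chromosomes, was at 221 CPM in both ethanol samples and at 268 and 288 CPM with 4-OHT (0.33 ± 0.0350), with 7.03% of its exon bases shared with Oip5. Mad2l1 was at 93.6 and 99.3 CPM and then at 118 and 124 CPM (0.33 ± 0.0455). Ccna2, the cyclin of S phase and G2, was at 411 and 422 CPM and then at 512 and 528 CPM (0.32 ± 0.0358). In all of them the lower 4-OHT sample stood clear of the higher ethanol sample.

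The cyclin B side of the entry switch moved less evenly. Ccnb2 rose by 0.31 and Ccnb1 by 0.18 ± 0.0551, from 49.0 and 54.5 to 56.5 and 60.4 CPM (adjusted p = 0.0134). The call for Ccnb1 was lost in 4 of the 17 alternatives run: without ethanol replicate 1, without 4-OHT replicate 2, in 1 model over all samples and with DESeq2. Ect2 rose by 0.12 (adjusted p = 0.0142), and its call was lost in 6 of the 17, including those 4. Cdk1, their partner, was at 216 CPM in both ethanol samples and at 220 and 232 CPM with 4-OHT (0.07 ± 0.0349, adjusted p = 0.112). Cdc20 was at 99.0 and 94.0 CPM and then at 94.0 and 103 CPM (0.03 ± 0.0438, adjusted p = 0.604), the only member whose pairs overlapped. Mki67 was at 1730 and 1840 CPM and then at 2040 and 2120 CPM (0.22 ± 0.0385, adjusted p = 6.42e-05).

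By role, all 4 passenger complex genes, all 5 checkpoint genes, all 3 centromere genes, all 6 cytokinesis genes and all 4 genes of chromosome structure rose, with 8 of 9 spindle genes and 5 of 6 cyclins and kinases. Neither cofactor of the anaphase-promoting complex passed. Ethanol replicate 1 differed from the other 3 NICD-ER libraries in Lars2 (91.0 CPM against 2180 to 2970 CPM). Without it, 33 genes rose and 0 fell. Without 4-OHT replicate 2, 31 rose, with Aurkb, Ccnb1, Ect2 and Bub3 lost.

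The third comparison set wild-type BioNICD against its DEP mutant, both under long-term expression, and the direction turned. Of the 39 genes, 37 fell and 0 rose, against a background of 33.6% lower and 32.0% higher of 12499 genes. The median log2 fold change was -0.46, farther from 0 than the largest change with 4-OHT (0.38), against -0.022 over all genes. Both wild-type samples lay below both DEP samples for 37 genes, where the background was 39.9% of genes, and the exceptions were Cenpe and Kif23, which did not pass. With the doubled counts of wild-type replicate 1 halved, an alternative chosen after seeing the data, the same 37 genes fell. Of all 12343 genes tested in that fit, 8073 were called in either direction.

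Anln (mm9 chromosome 9, 22135658 to 22193650) fell most. It was at 309 and 325 CPM in the DEP mutant and at 189 CPM in both wild-type samples (log2 fold change -0.77 ± 0.0349, adjusted p = 3.99e-15). Hmmr was at 171 and 170 CPM in the mutant and at 107 and 110 CPM with the wild type (-0.68 ± 0.0428, adjusted p = 2.06e-12). Cenpf was at 351 and 388 CPM and at 233 and 236 CPM (-0.68 ± 0.0467, adjusted p = 1.08e-11). Each of these drops was larger than the spread within either pair.

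Cdc20, which did not pass the test with 4-OHT, was at 136 and 137 CPM in the mutant and at 85.6 and 88.8 CPM with the wild type (-0.67 ± 0.0452, adjusted p = 7.39e-12). Mad2l1 was at 105 and 109 CPM and at 67.4 and 73.8 CPM (-0.63 ± 0.0494, adjusted p = 1.19e-10). Cdk1 was at 255 and 268 CPM and at 175 and 171 CPM (-0.61 ± 0.0360, adjusted p = 5.21e-13). The kinase, the checkpoint inhibitor and its target thus stood lower together with the wild type.

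Ccnb1 was at 49.5 and 46.6 CPM in the mutant and at 33.8 and 33.5 CPM with the wild type (-0.53 ± 0.0630, adjusted p = 1.20e-07). Mki67 was at 1670 and 1830 CPM and at 1290 and 1270 CPM (-0.47 ± 0.0387, adjusted p = 2.81e-10), so that here it moved with the rest. Ect2 fell by 0.61, Top2a by 0.54 and Ncaph by 0.51. The smallest called changes were in Plk1 (-0.15 ± 0.0405, adjusted p = 0.00210) and Birc5 (-0.19 ± 0.0476). Cenpe was at 242 and 261 CPM in the mutant and at 266 and 248 CPM with the wild type (adjusted p = 0.825), and Kif23 at 194 and 201 CPM and at 199 CPM in both (adjusted p = 0.870). Itgam, a myeloid marker, moved with this comparison (63.0 and 61.4 CPM with the wild type, 0.177 and 0.0939 CPM in the mutant, at most 1.32 CPM in any other sample), and its 4 companion markers were at or below 0.167 CPM in the wild-type samples.

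**Figure D4:**
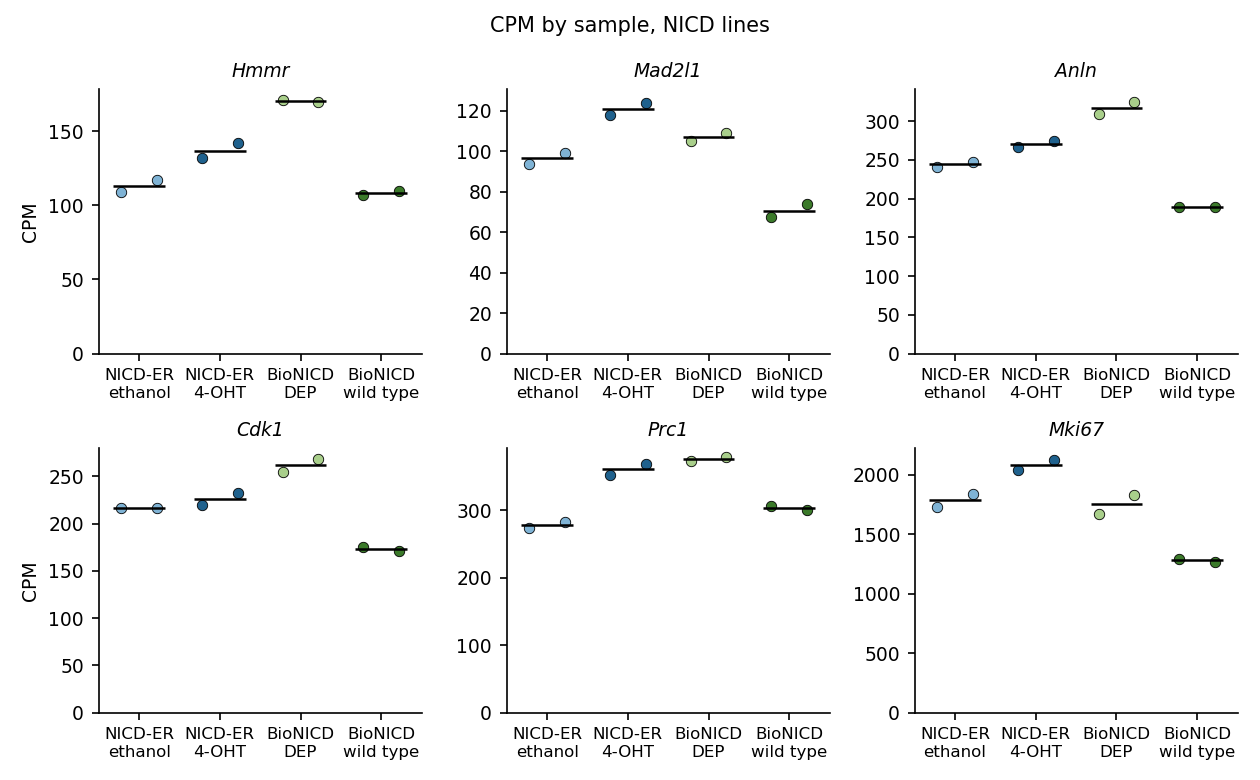
CPM (y axis, from 0) of 6 mitotic genes in the 4 groups of NICD samples (x axis, 2 samples each), with bars at the means. Each gene is higher with 4-OHT than with ethanol by a small step, which for Cdk1 did not pass the test, and lower with wild-type BioNICD than with the DEP mutant.

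The 2 Notch comparisons share no samples and were set against each other in the same model. The NICD-ER effect minus the BioNICD effect was above 0 and past the test for all 39 genes, with 0 in the other direction, where the background was 26.4% higher and 25.1% lower. The median difference was 0.67 on the log2 scale. It was largest for Hmmr (0.96 ± 0.0596, adjusted p = 4.97e-12) and Mad2l1 (0.96 ± 0.0671, adjusted p = 4.40e-11), followed by Anln (0.92), Cenpf (0.89), Top2a (0.86) and Ncaph (0.82). It was smallest for Kif23 (0.30 ± 0.0524, adjusted p = 5.20e-05), with 0.29 with 4-OHT and -0.01 with wild-type BioNICD. The comparisons differ in construct, ligand, time of exposure and control, and these cannot be told apart. Across the 39 genes the signed changes of both comparisons had a Pearson r of 0.383 and a Spearman rho of 0.341, over genes, which are not independent replicates.

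**Figure D5:**
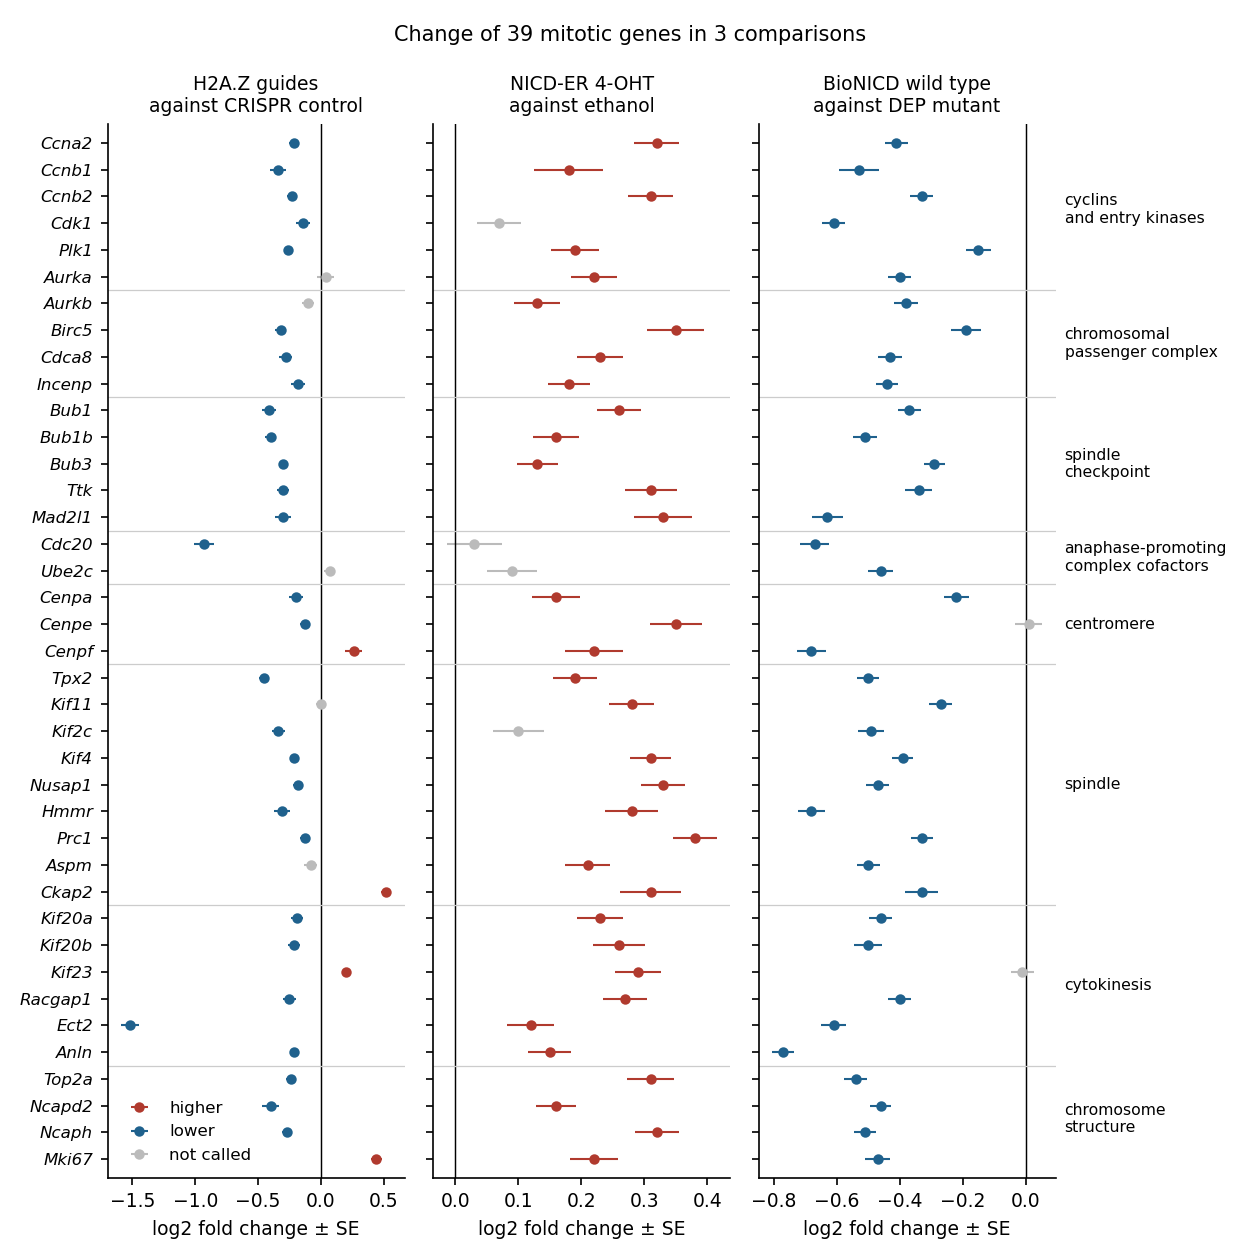
log2 fold change ± SE (x axis, with a different scale in each panel) of the 39 mitotic genes (y axis, grouped by role) in the 3 comparisons. Red points rose, blue points fell and grey points did not pass the test. With H2A.Z guides 30 are blue and 4 red, with 4-OHT 35 are red, and with wild-type BioNICD 37 are blue.

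Over the 3 comparisons, 26 of the 39 genes fell with H2A.Z guides, rose with 4-OHT and fell with wild-type BioNICD. The share of all genes with this joint pattern was not computed, so the count is a description without a background. The genes that rose with the guides and with 4-OHT and fell with wild-type BioNICD were Ckap2, Mki67 and Cenpf. Kif23 rose in the first and second and did not pass in the third.

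Other cell cycle genes were read from lists given by function, against the shares of all genes called: 31.8% higher and 32.7% lower with the guides, 19.0% and 17.2% with 4-OHT, and 32.0% and 33.6% with wild-type BioNICD. Of 34 kinetochore and checkpoint genes, 2 rose and 23 fell with the guides, 26 rose and 0 fell with 4-OHT, and 1 rose and 25 fell with wild-type BioNICD, with medians of -0.25, 0.24 and -0.32. Cenpk, a subunit of the inner kinetochore, fell by 0.72 with the guides and by 0.75 with wild-type BioNICD. Of 16 cohesin and condensin genes, 4 rose and 10 fell with the guides, 13 rose and 0 fell with 4-OHT, and 0 rose and 13 fell with wild-type BioNICD, the 4 that rose with the guides being near the background of 31.8%. Smc4, the condensin ATPase, fell by 0.41 with the guides (1160 ± 68.6 to 873 ± 101 CPM) and by 0.78 with wild-type BioNICD (1210 ± 46.6 to 711 ± 7.47 CPM).

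Of the other spindle and cytokinesis genes, 3 rose and 15 fell of 25 tested with the guides. Of 26 tested in the NICD samples, 23 rose and 0 fell with 4-OHT, and 2 rose and 20 fell with wild-type BioNICD. Cit, citron kinase of the midbody, fell by 0.59 with the guides, and Iqgap3, a scaffold of the cell cortex, fell by 0.89 with wild-type BioNICD. Of 16 genes of the anaphase-promoting complex, its inhibitor and separase, 1 rose and 9 fell, 8 rose and 1 fell, and 4 rose and 10 fell, in the same order of comparisons. The 4 that rose with wild-type BioNICD are near the background of 32.0%. Fbxo5 (Emi1), the inhibitor that lets cyclins build up in G2, rose by 0.31 with 4-OHT and fell by 0.55 with wild-type BioNICD.

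Of 26 genes that control mitotic entry, 7 rose and 13 fell with the guides, 13 rose and 1 fell with 4-OHT, and 1 rose and 19 fell with wild-type BioNICD. The 7 that rose with the guides are near the background of 31.8%. The genes of chromosomes 8 and 5, whose guide medians stood at 0.51 and -0.33, were not left out of these lists. Whether the guide value of a list gene, such as Cit above or Rbl2 below, shares a cause with its chromosome was not tested. Foxm1, the forkhead factor of G2 genes, singled out after its values were seen, fell by 0.28 ± 0.0671 with the guides (adjusted p = 0.00181), rose by 0.31 ± 0.0433 with 4-OHT (adjusted p = 3.48e-06) and fell by 0.37 ± 0.0461 with wild-type BioNICD (adjusted p = 2.01e-07). Mybl2 rose with the guides, from 58.0 ± 8.64 to 93.8 ± 23.4 CPM (0.67 ± 0.0610, adjusted p = 9.61e-08). It did not pass with 4-OHT (0.03 ± 0.0416, adjusted p = 0.575) and fell with wild-type BioNICD (-0.16 ± 0.0485, adjusted p = 0.00669). Rbl2, the p130 subunit of the repressing DREAM complex, rose from 82.4 ± 4.76 to 221 ± 15.6 CPM with the guides (1.42 ± 0.0539, adjusted p = 2.56e-12). It fell from 212 ± 4.68 to 148 ± 6.98 CPM with 4-OHT (-0.51 ± 0.0375, adjusted p = 1.20e-10). Rbl2 is named because these were the largest called changes of this list in those comparisons. Its value with wild-type BioNICD, where it was not among the 2 largest, is not given, nor are the other DREAM and MuvB genes one by one. Of 28 G1/S genes, which serve DNA replication, 6 rose and 15 fell with the guides, 21 rose and 2 fell with 4-OHT, and 4 rose and 19 fell with wild-type BioNICD, with medians of -0.21, 0.20 and -0.22.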

How the data were processed

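RNA sequencing libraries of 20 E2-10HA samples were analysed from the count files. Reads were counted per gene by the authors with featureCounts 1.5.0, per the file headers, with UCSC gene models of mm9 and no strand option. The deposited values are raw counts. The 39 genes and the other lists were chosen with earlier results of these data known. Genes were tested over the whole table with edgeR 4.0.16 (TMM scaling, filterByExpr, quasi-likelihood test, Benjamini-Hochberg adjusted p under 0.05) in R 4.3.3. One model held the 12 CRISPR samples with submission set as a covariate, and another the 8 NICD samples. Standard errors were taken from the fold change and the F statistic. DESeq2 1.42.0, other scalings, no filter, and leaving out each sample were alternatives. The scripts were tested on simulated data. Every member may be named, and per-sample values are given for the 6 members with the largest called change per comparison, the largest of the rarer direction, and Ccnb1, Cdk1 and Mki67. Replicate pairs were compared by chi-square, and none was merged: the closest, the wild-type BioNICD pair, had a mean of 2.03 per gene with the doubled counts halved. Guide replicates 3 and 4 (2.75) and 5 and 6 (3.23) were also close, while pairs across them stood at 39 to 53.6. The 6 guide libraries may therefore not be 6 independent samples. Replicate numbers were not used to pair the samples in the main models. For 6 set 2 CRISPR samples title and description disagree on the group; the title was followed, since the plasmid label matches it. Promoter windows are from RefSeq, GRCm38.p6, a later build than that of the counts.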

Additional observations from a re-analysis of the deposited data

Results flagged for a closer look

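Of 80 groups of 6 samples examined, 9 held a sample far from the others. The rule flags about 1 in 20 where all 6 samples are of 1 kind. Each group here mixes 2 submission sets, and the genes share the same libraries, so that rate is not the expectation for these groups. Guide replicate 2 stood highest for Ccna2 (609 CPM), Ube2c (310 CPM), Hmmr (171 CPM) and Aspm (422 CPM). Guide replicate 1 stood lowest for Ccnb1 (46.6 CPM), Cdk1 (203 CPM), Ttk (66.8 CPM) and Kif20b (137 CPM). Control replicate 4 stood lowest for Kif4 (318 CPM). Both guide replicates belong to set 1.

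The change in the NICD-ER comparison differed from that in the BioNICD comparison for all 39 genes by edgeR's test of the difference. These comparisons differ in construct, ligand, time of exposure and control, which cannot be told apart. The part of NICD activity in the difference was not tested. The largest differences were in Hmmr (0.96), Mad2l1 (0.96), Anln (0.92), Cenpf (0.89), Top2a (0.86) and Ncaph (0.82), on the log2 scale.

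The effect of the H2A.Z guides differed between the submission sets for 10 genes by the same kind of test. The largest differences, set 2 minus set 1, were in Cenpf (-0.48), Ect2 (-0.44), Aurka (-0.43), Cdc20 (-0.42), Ncapd2 (-0.41) and Hmmr (-0.32). The calls for Cdc20 and Hmmr were lost in 8 and 10 of the 17 alternatives run.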

How the results depend on the processing

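Of the members called in the 3 comparisons, Incenp changed sign, to 0.04 with the guides in set 1 alone, which was not called. Members that did not pass changed sign as follows. With the guides, set 1 alone gave Aspm 0.05, Aurkb 0.03 and Kif11 -0.07, and Aurka was -0.10 and called lower in set 2 alone and -0.04 without the fibroblast-marker libraries, an alternative chosen after seeing the data. Kif11 was within 0.01 of 0 without the samples over 5% Rn45s. Leaving out 1 library gave Aurka -0.02 to 0.07 and Kif11 -0.01 to 0.05 with the guides, Cdc20 -0.03 to 0.09 with 4-OHT, and Cenpe -0.04 to 0.07 and Kif23 -0.03 to 0.01 with wild-type BioNICD. There, Cenpe was -0.03 with upper quartile scaling, and Kif23 was 0.01 with RLE scaling and with DESeq2, 0.02 without Rn45s counts and 0.02 in its 4 samples alone, and within 0.01 of 0 in 1 model over all samples. With set 1 alone (2 samples against 2), 5 of the 39 genes fell with the guides instead of 30, and 2948 of all genes were called instead of 6874. Fewer samples enter that fit, and its spread between replicates, edgeR's biological coefficient of variation, was 11.5%, against 4.69% in set 2 alone. The cause of the lower number was not tested. In 1 model over all 20 samples, 23 genes rose with 4-OHT instead of 35, and 2218 of all genes were called instead of 4521; the cause was not tested. For the difference between sets, leaving out 1 library gave 5 to 15 genes lower (10 with all), 0 to 5 higher and 851 to 4062 of all genes (1672 with all). The extremes were control replicate 1 (6 lower, 851 genes), control replicate 2 (5 lower, 1037 genes), guide replicate 1 (14 lower, 2323 genes) and guide replicate 2 (15 lower, 5 higher, 4062 genes). DESeq2 gave 4 higher and 29 lower with the guides (7152 of all genes called), 33 higher with 4-OHT (3334) and 37 lower with wild-type BioNICD (7010). Halving the doubled library, chosen after seeing the data, gave 36 higher with 4-OHT (4627 of all genes called) and 37 lower with wild-type BioNICD (8073).

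The replicate numbers were not taken to pair the samples, since deviations of same-numbered samples did not correlate in every pair. The correlations were 0.385 in set 1 of the CRISPR samples, -0.00968 to 0.064 in set 2, -0.0194 in BioNICD and 0.0672 in NICD-ER. In set 1, control replicate 1 and guide replicate 1 also shared fibroblast markers (34.9 and 42.3 CPM), so same-numbered samples there may belong together. With a replicate block, 4 genes rose and 30 fell with the guides (6412 of all genes called), 37 rose with 4-OHT (5012) and 37 fell with wild-type BioNICD (8406).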
